A study of Mus musculus with 16 samples.

Results

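The genes examined were 5 parts of a transport unit at the muscle cell surface, embigin (Emb), basigin (Bsg) and the lactate transporters Slc16a1, Slc16a3 and Slc16a7, out of 35275 genes in the deposited table. They were chosen by name. Emb was selected on its measured values, being near absent in the triple-knockout libraries, and the 4 others are its functional partners. All 5 members are in the table, and 3 of them (Emb, Bsg and Slc16a1) passed the filter on low values, a mean of at least 0.5 FPKM over the 16 libraries. The unit, FPKM, is the number of sequenced fragments of a gene divided by its length and by the depth of the library. Slc16a3 and Slc16a7 fell below that filter and are described from their values.

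The cells were C2C12, an established mouse myoblast line, here a stock labelled as lacking PAX7, the transcription factor of muscle stem cells. Control lines were 2 wild-type populations (Control_1 and Control_2), and knockout lines were 2 clones (tKO_C1 and tKO_C2) in which miR-206 and both copies of its relative, miR-1a-1 and miR-1a-2, had been deleted. Each line was harvested as proliferating myoblasts in growth medium with 20% fetal bovine serum (GM) and after 3 days in medium with 2% horse serum (DM3), when myoblasts fuse into myotubes, with 2 cultures (BR1 and BR2) per line and stage. Poly(A)-enriched RNA gave 4 libraries in each of the 4 groups, at depths of 22642563 to 56585952 fragments. The knockout rests on 2 clones, so a difference between genotypes cannot be told apart from a difference that both clones acquired on their own. No label says which cultures were grown side by side, and p-values measure the spread between libraries of a group.

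Lactate leaves and enters cells with a proton through monocarboxylate transporters of the SLC16 family. MCT1, encoded by Slc16a1, is widely expressed, MCT4 (Slc16a3) is the form of glycolytic muscle fibres that export lactate, and MCT2 (Slc16a7) has a high affinity and is prominent in neurons and testis. These transporters reach the plasma membrane only with a chaperone of the immunoglobulin superfamily. Basigin (CD147) accompanies MCT1 and MCT4, and embigin accompanies MCT2 and can also partner MCT1. Neuroplastin (Nptn) is the third gene of that small family.

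The deleted microRNAs share the seed that pairs with messenger RNAs, so the mature sequence of miR-206 is given with its seed, bases 2 to 8, in capitals. The sequence is from RefSeq, on the plus strand of GRCm38.p6 at chr1:20679055-20679076.
mmu-miR-206-3p: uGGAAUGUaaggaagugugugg

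Matches to this seed were searched on the sense strand of the longest annotated 3′ UTR of each gene in GENCODE release M21, as ACATTCC or CATTCCA. The first word pairs with bases 2 to 8, and the second with bases 2 to 7 only and ends in an A. The 2 words overlap in the 8-base site ACATTCCA, which holds both. None was present in the 3′ UTR of Emb (1353 bases), Bsg (412 bases), Nptn (3890 bases) or Slc16a1 (2740 bases). Slc16a3 held 1, at base 174 of 2736, on the plus strand at chr11:120958295-120958323. Slc16a7 held 1, at base 314 of 8742, on the minus strand at chr10:125227681-125227709. Both matches are CATTCCA, in capitals below, with 11 bases on either side, and are shown because they are the only ones in the 5 genes. For all 21039 genes with a 3′ UTR, 16.9% held a 7-base match and 3.8% the 8-base one.
Slc16a3: gggaaccgcgtCATTCCAaagtggatctg
Slc16a7: aattagatctgCATTCCAgaccttggctc

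The promoters of Emb and Slc16a1 are given because the first transcript was near absent in knockout cells and the second was not. Each is the 250 bases before the RefSeq start on the plus strand of GRCm38.p6, at chr13:117220323-117220572 for Emb and chr3:104638414-104638663 for Slc16a1. Capitals mark the E-box CANNTG, the word bound by MyoD-type and other basic helix-loop-helix factors, which reads the same on both strands. Emb had 2 matches, 166 and 68 bases before the start, and Slc16a1 had 1, 200 bases before it. No match was found in the Slc16a3 promoter. Of 32851 promoters of that length, 66.2% held at least 1 match, so a match here is common and describes only the letters.
Emb: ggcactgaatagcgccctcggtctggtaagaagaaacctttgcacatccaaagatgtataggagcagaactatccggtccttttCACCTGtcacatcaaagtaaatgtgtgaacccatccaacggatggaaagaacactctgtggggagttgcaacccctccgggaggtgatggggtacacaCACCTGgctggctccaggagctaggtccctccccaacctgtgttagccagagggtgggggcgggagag
Slc16a1: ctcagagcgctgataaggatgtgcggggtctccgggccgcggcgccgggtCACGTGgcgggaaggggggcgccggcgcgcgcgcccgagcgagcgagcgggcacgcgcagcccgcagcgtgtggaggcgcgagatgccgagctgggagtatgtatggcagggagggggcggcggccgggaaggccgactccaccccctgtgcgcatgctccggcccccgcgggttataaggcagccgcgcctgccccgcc

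Embigin is a glycoprotein of the cell surface with roles in adhesion and in transporter delivery. Emb (ENSMUSG00000021728) lies on chromosome 13, plus strand, 117220625 to 117274098, in the table's coordinates (build mm10 per the submitters' processing notes). In control GM its level was 9.57 and 7.70 FPKM in the cultures of population 1, and 9.81 and 7.95 FPKM in those of population 2. In tKO GM it was 0 and 0.0588 FPKM in clone 1, and 0.0424 and 0.0144 FPKM in clone 2. Every knockout library thus lay far below every control library, and each held 0 to 3 fragments of Emb against 431 to 754 in the controls.

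In differentiated control cells Emb stood at 12.03 and 15.7 FPKM in population 1, and at 10.8 and 14.3 FPKM in population 2. In tKO DM3 it was 0 and 0.0154 FPKM in clone 1, and 0.0961 and 0.285 FPKM in clone 2. The groups did not overlap at this stage either. The knockout libraries were not equal among themselves: 6 and 20 fragments came from clone 2, and 0 and 1 from clone 1. The limit of detection used here, 3 fragments, corresponds to 0.0235 to 0.0588 FPKM for Emb, so both DM3 libraries of clone 2 lay above that limit and both of clone 1 below it.

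Pooled over libraries, control GM gave 2513 fragments of Emb and tKO GM 7, a ratio of 325.9 after scaling to depth (95% interval 158.0 to 811.5). In DM3 the sums were 4911 and 27, a ratio of 135.7 (93.1 to 206.1). Of the 27 fragments 20 came from 1 library, culture 2 of clone 2, and without it the ratio was 387.2 (187.8 to 963.7), a comparison chosen after seeing the data. Leaving out any other single library gave 241.5 to 457.6 in GM and 99.3 to 142.5 in DM3. The intervals hold counting error alone and leave out the spread between lines and cultures. Several fragments can also stem from 1 amplified molecule, so the intervals may be too narrow even for counting error. On the log2(FPKM + 1) scale, which understates changes of low values, the differences were -3.24 in GM and -3.69 in DM3. These are the values that chose the gene, so they are a description without a test. In bulk RNA, fewer cells with a transcript and less transcript per cell cannot be told apart.

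**Figure D1:**
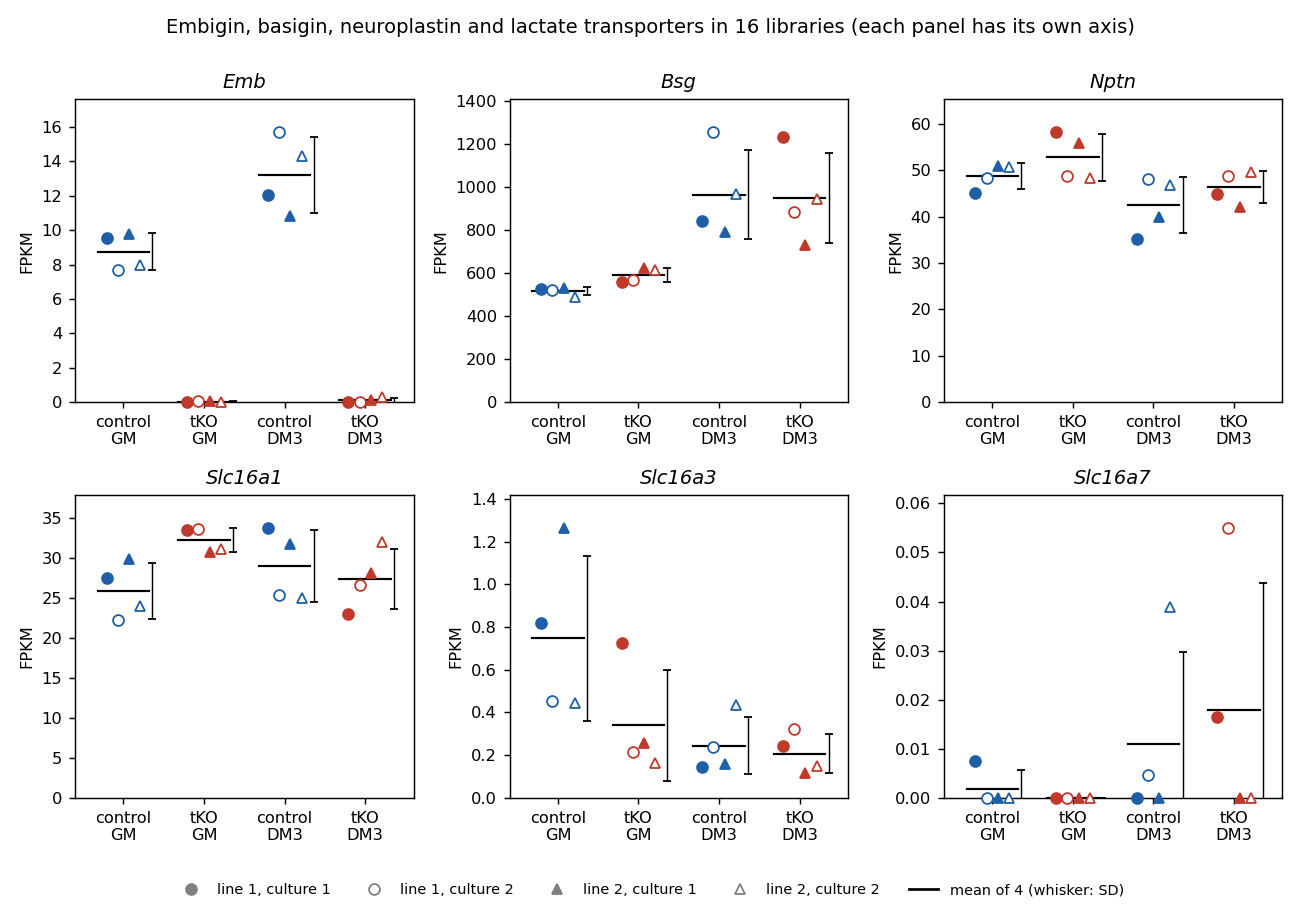
FPKM (vertical axis, from 0, a separate scale in each panel) of embigin, basigin, neuroplastin and the 3 lactate transporters in the 4 groups. Points are libraries, with circles for population 1 or clone 1, triangles for population 2 or clone 2, and filled and open symbols for cultures 1 and 2. Horizontal lines are means of 4 libraries and whiskers their SD. Emb lies at 7.70 to 15.7 FPKM in every control library and at 0 to 0.285 FPKM in every knockout library.

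Emb rose with differentiation in control cells, a contrast its choice did not use. The mean went from 8.76 ± 1.09 FPKM in GM to 13.2 ± 2.21 FPKM in DM3 (SD, n = 4 each), and the groups did not overlap. The change was 0.54 on the log2(FPKM + 1) scale (SE 0.13, 95% interval 0.26 to 0.81), with an adjusted p of 0.00188 (limma with Benjamini-Hochberg adjustment over 11832 genes). By the same test 23.2% of all genes were higher and 38.3% lower in control DM3 than in control GM, so a gene that changes at this stage is common. The 2 culture numbers gave unequal rises, 0.22 in culture 1 and 0.86 in culture 2, with no overlap in either, and whether this is a batch was not tested. Within a culture number 2 libraries stand against 2, so a lack of overlap there is common by chance, here and below. With a pseudocount of 0.1 the change was 0.58 with a wider SE of 0.335, and the adjusted p was 0.142. The fit shares its spread over all 16 libraries, including tKO ones with 0 to 20 fragments of Emb. Without control population 1 the change was 0.45 with an adjusted p of 0.0898. Over all alternatives the adjusted p ran from 0.000103 to 0.142. For tKO cells no fold is given, because Emb lay at or near 3 fragments in most of those libraries.

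The control populations had close mean levels of Emb, at 8.64 and 8.88 FPKM in GM and 13.9 and 12.6 FPKM in DM3. The difference of population 2 from population 1, averaged over the stages, was -0.05 (limma, adjusted p = 0.99987). In this contrast limma called 0 of 11832 genes (0%), with 42 at an unadjusted p under 0.05, and 0 also with a pseudocount of 0.1. Chance alone would give far more than 42 at that threshold, so the test was conservative here. The lack of calls therefore cannot show that the populations are alike. Between the clones, limma called 5.41% of genes.

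Basigin is the main chaperone of MCT1 and MCT4 and was the most abundant member. Bsg (ENSMUSG00000023175) lies on chromosome 10, plus strand, 79704491 to 79711969. In control GM it was at 526, 521, 528 and 489 FPKM, given here and below as culture 1 and culture 2 of line 1, then of line 2. In tKO GM the values were 557, 569, 622 and 615 FPKM. Each knockout library was above each control library, with means of 590.8 ± 32.6 and 515.9 ± 17.9 FPKM (SD, n = 4 each). The difference of 0.19 on the log2 scale (SE 0.16, 95% interval -0.13 to 0.52) did not pass limma's test over all genes (adjusted p = 0.565).

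In DM3 the levels of Bsg spread more widely. Control libraries had 841, 1256, 790 and 968 FPKM, and tKO libraries had 1233, 882, 731 and 943 FPKM. The groups overlapped almost fully, and the difference was -0.03 (95% interval -0.36 to 0.30, limma adjusted p = 0.954). It was 0.22 within culture 1, where the groups overlapped, and -0.27 within culture 2, where they did not (2 libraries against 2 in each).

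Bsg rose with differentiation in both genotypes. In control cells the change was 0.88 (SE 0.16, 95% interval 0.55 to 1.21, limma adjusted p = 0.000134), with no overlap between stages. In tKO cells it was 0.66 (SE 0.16, 95% interval 0.33 to 0.98, limma adjusted p = 0.00163), again with no overlap. For comparison, 24.9% of genes were higher and 36% lower in tKO DM3 than in tKO GM. The rise in tKO cells leaned on clone 1, whose mean went from 563.0 to 1057 FPKM while clone 2 went from 618.6 to 836.7 FPKM; without clone 1 it was 0.42 with an adjusted p of 0.0783. The rises of the 2 genotypes differed by -0.22 (95% interval -0.69 to 0.24), which did not pass the interaction test (limma adjusted p = 0.745), a test that 0.254% of genes passed.

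Relative to one another, the 3 chaperones kept one order. Per unit length, Bsg made up 89.3 to 96.5% of the summed FPKM of Bsg, Nptn and Emb over the 16 libraries. Emb was 1.19 to 1.67% of that sum in control libraries and at most 0.0287% in knockout libraries. Nptn held the remainder, 7.28 to 9.48% in GM and 3.52 to 5.44% in DM3.

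Neuroplastin, a synaptic and muscle adhesion protein that also chaperones plasma-membrane calcium pumps, moved little. Proliferating controls had 48.7 ± 2.76 FPKM and proliferating knockouts 52.8 ± 5.06 FPKM. After differentiation the values were 42.6 ± 6.05 FPKM and 46.4 ± 3.55 FPKM in that order (SD, n = 4 each). Nptn passed limma's test in neither genotype contrast, at 0.11 in GM (adjusted p = 0.652) and 0.13 in DM3 (adjusted p = 0.591), nor with differentiation, at -0.20 in control cells (adjusted p = 0.121).

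Slc16a1 encodes MCT1, a transporter that carries lactate and pyruvate in either direction. Slc16a1 (ENSMUSG00000032902) lies on chromosome 3, plus strand, 104638668 to 104658462. In control GM it was at 27.5, 22.2, 30.0 and 24.0 FPKM, and in tKO GM at 33.6, 33.6, 30.8 and 31.2 FPKM. The knockout libraries were all higher, with means of 32.3 ± 1.52 and 25.9 ± 3.47 FPKM (SD, n = 4 each). The difference of 0.32 (SE 0.13, 95% interval 0.05 to 0.58) had an unadjusted limma p of 0.0233 and did not pass after adjustment over all genes (adjusted p = 0.202). In this contrast 2076 of 11832 genes had an unadjusted p under 0.05, so such a value is common. The difference of Slc16a1 was 0.16 within culture 1 and 0.47 within culture 2, without overlap in either (2 libraries against 2 in each).

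In DM3 the genotypes overlapped for Slc16a1. Control libraries had 33.9, 25.4, 31.8 and 25.0 FPKM, and tKO libraries had 23.0, 26.6, 28.2 and 32.02 FPKM. The difference was -0.08 (95% interval -0.34 to 0.19, limma adjusted p = 0.820). The culture numbers gave opposite signs, -0.35 in culture 1 and 0.20 in culture 2, with no overlap in either. With 2 libraries against 2 in each, this separation is common by chance and does not establish a reversal. The genotype differences in GM and DM3 differed by -0.39 (95% interval -0.77 to -0.01), which did not pass after adjustment over all genes (limma adjusted p = 0.442).

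With differentiation Slc16a1 did not pass the test in either genotype. The change was 0.16 in control cells (95% interval -0.11 to 0.42, limma adjusted p = 0.296) and -0.24 in tKO cells (95% interval -0.50 to 0.03, adjusted p = 0.117). One choice of scaling changed the first of these. Median-of-ratios scaling moved the median change of all genes from -0.15 to 0.01 in control cells, and there Slc16a1 was at 0.35 with an adjusted p of 0.0253. Under that scaling 3611 genes were higher and 3632 lower in control DM3, against 2743 and 4529 on the deposited scale. In tKO cells it gave 3573 higher and 3587 lower, against 2951 and 4257.

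Of the partners, Bsg and Slc16a1 were tested, and neither passed in either genotype contrast. Over all genes, 0.549% were higher and 1.51% lower in tKO GM, and 2.02% were higher and 1.36% lower in tKO DM3, so a pair of genes without a call is the usual outcome. In DM3 the 95% intervals reached no lower than -0.36 and no higher than 0.30 for either gene. Averaged over the stages, the clones did not differ beyond the test for Bsg (-0.10, limma adjusted p = 0.769) or Slc16a1 (0.08, adjusted p = 0.772). Their order changed between stages. Means of Bsg, clone 1 then clone 2, were 563.0 and 618.6 FPKM in GM and 1057 and 836.7 FPKM in DM3. For Slc16a1 they were 33.6 and 31.0 FPKM in GM and 24.8 and 30.1 FPKM in DM3.

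**Figure D2:**
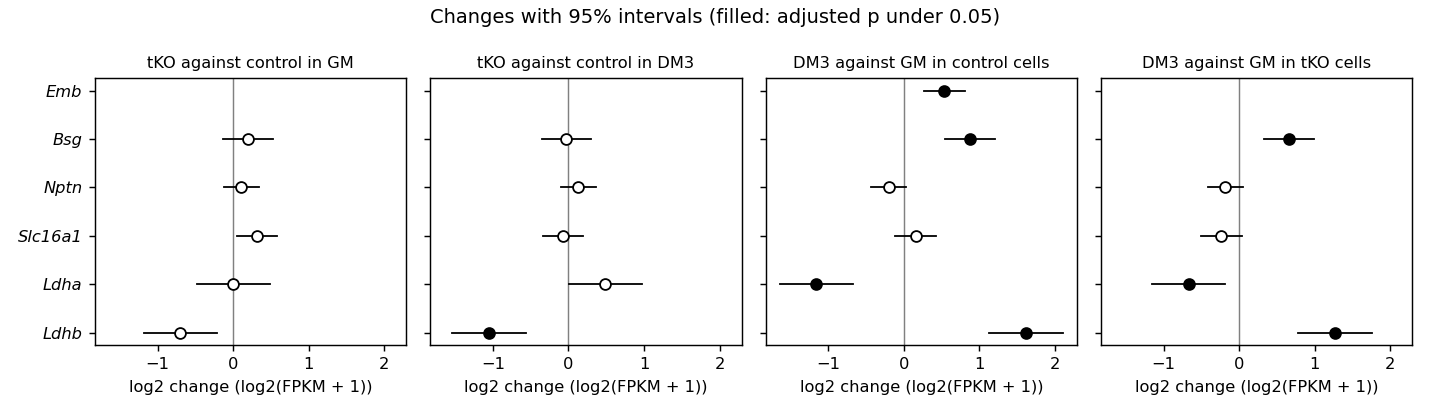
Log2 changes on the log2(FPKM + 1) scale (horizontal axis) with 95% intervals from limma, for embigin, basigin, neuroplastin, Slc16a1 and the lactate dehydrogenases in 4 contrasts. Filled points passed an adjusted p of 0.05. Emb is shown only for differentiation in control cells, where it rose by 0.54, beside Bsg at 0.88 and Slc16a1 at 0.16.

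Slc16a3 encodes MCT4, the exporter of glycolytic cells. Slc16a3 (ENSMUSG00000025161) lies on chromosome 11, plus strand, 120948480 to 120960868. Its level was low, at 0.818, 0.455, 1.27 and 0.446 FPKM in control GM and 0.724, 0.214, 0.257 and 0.165 FPKM in tKO GM. The groups overlapped only through culture 1 of clone 1, and within each culture number both clones lay below both control populations. Pooled, control GM held 421 fragments and tKO GM 171, a ratio of 2.24 after scaling to depth (95% interval 1.87 to 2.69, counting error only). Culture 1 of clone 1 supplied 93 of the 171 fragments, and without it, again a comparison chosen after seeing the data, the ratio was 3.63 (2.85 to 4.69). Culture 1 of control population 2 supplied 185 of the 421 fragments, and without it the ratio was 1.71 (1.399 to 2.095). Leaving out any other single library gave 1.87 to 2.56. When no filter on low values was applied, limma gave -0.38 (SE 0.15, 95% interval -0.70 to -0.05) with an unadjusted p of 0.0266. The difference did not pass after adjustment over all genes (adjusted p = 0.330). In that fit 2819 of 23576 genes had an unadjusted p under 0.05 in this contrast. The difference of Slc16a3 was -0.46 within culture 1 and -0.29 within culture 2, without overlap in either (2 libraries against 2 in each). The size depends on the pseudocount, and with 0.1 the difference was -0.99, given without a test.

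In DM3 the level of Slc16a3 was 0.145, 0.236, 0.159 and 0.436 FPKM in control and 0.244, 0.321, 0.117 and 0.148 FPKM in tKO libraries, with full overlap. Against control GM, control DM3 was lower for every library, and the pooled counts of 421 and 168 fragments gave a ratio of 3.19 (95% interval 2.66 to 3.84, counting error only). Leaving out 1 library at a time gave ratios of 2.44 to 4.06. With no filter the change was -0.47 (SE 0.15, limma adjusted p = 0.0265), made of -0.82 in culture 1 and -0.12 in culture 2. In tKO cells it was -0.14 (adjusted p = 0.541). With a pseudocount of 0.1 these stage differences were -1.26 in control and -0.41 in tKO cells, given without a test. In the fit with no filter, Slc16a3 was not called higher in knockout libraries at either stage. That fit called 40 of 23576 genes higher in tKO GM and 223 in tKO DM3, so this is usual. Whether the seed match shown above bears on the level of Slc16a3 was not tested.

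Slc16a7 encodes MCT2, the transporter for which embigin is the preferred chaperone. Slc16a7 (ENSMUSG00000020102) lies on chromosome 10, minus strand, 125226464 to 125328963. It held 1 fragment over the 4 control GM libraries, 0 over tKO GM, 6 over control DM3 and 8 over tKO DM3. The limit of 3 fragments corresponds to 0.014 to 0.035 FPKM for this gene. Only 2 libraries exceeded it, culture 2 of population 2 in DM3 (5 fragments) and culture 2 of clone 1 in DM3 (6 fragments). MCT2 transcript was therefore not detectable at this depth in the other 14 libraries, with or without Emb.

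Slc16a1 supplied nearly all transcript of the 3 transporters. Its share of their summed FPKM was 97.3 ± 1.02% in control GM, 99.0 ± 0.734% in tKO GM, 99.1 ± 0.66% in control DM3 and 99.2 ± 0.487% in tKO DM3 (SD, n = 4 each). That sum leaves out other members of the family, among them Slc16a13 at a mean of 15.3 FPKM in control GM. The share was 1.68 percentage points higher in tKO than in control GM (two-sided exact permutation p = 0.0857, adjusted over 4 contrasts 0.171). It was 1.77 points higher in control DM3 than in control GM (exact permutation p = 0.0571, adjusted 0.171). Differences of 0.0846 points between genotypes in DM3 and 0.178 points between stages in tKO cells had exact permutation p-values of 0.886 and 0.743. No contrast passed. The smallest exact permutation p of 4 against 4 libraries is 0.0286, which a single contrast cannot carry past the threshold after adjustment over 4 contrasts. A miss here thus decides little.

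The stoichiometry of transcript differed between chaperones. In control GM the ratio of Emb to Slc16a1 was 0.327 to 0.348, a narrow range over the 4 libraries. In control DM3 it was 0.340 to 0.619. Bsg exceeded Slc16a1 by 16.6-fold to 23.4-fold in GM libraries and by 24.8-fold to 53.7-fold in DM3 libraries of either genotype.

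Levels of the members thus ran in the order Bsg, Slc16a1, Emb, Slc16a3 and Slc16a7 in control cells, and no neighbours in this order overlapped over the 8 control libraries. In knockout libraries Slc16a3 exceeded Emb in 7 of 8, the exception being culture 2 of clone 2 in DM3 with 0.148 FPKM of Slc16a3 and 0.285 FPKM of Emb. In DM3, clone 2 had 6 and 20 fragments of Emb and 0 of Slc16a7 in both libraries, whereas clone 1 had 0 and 1 of Emb and 2 and 6 of Slc16a7. In the 4 tKO GM libraries Slc16a7 held 0 fragments and Emb at most 3.

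Genes with a pattern like that of Emb were sought among all filtered genes by Pearson's r of log2(FPKM + 1) over the 16 libraries. The closest were Cntn3 (r = 0.995), a neuronal adhesion protein of the immunoglobulin superfamily, Pawr (0.994), a pro-apoptotic regulator, Serpine2 (0.988), a protease inhibitor, Igfbp2 (0.985), a carrier of insulin-like growth factors, and Rab6b (0.983), a Golgi GTPase. The points share lines and groups, so these values are a description with no test. Cntn3 had 1.28 ± 0.0939 FPKM in control GM and 0 to 0.00626 FPKM in tKO GM. Igfbp2 had 5.94 ± 0.844 FPKM in control GM and 13.02 ± 1.546 FPKM in control DM3 (SD, n = 4 each), against 0 to 0.442 FPKM in all knockout libraries. Pawr kept more transcript in knockout cells, at 0.102 to 0.422 FPKM. Igfbp2 was also higher in clone 2 than in clone 1 in DM3, with 13 and 18 fragments against 0 and 0. Rab6b had the opposite order, at 0 and 1 fragments in clone 2 against 8 and 6 in clone 1, and Serpine2 had 0 and 2 in each.

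**Figure D3:**
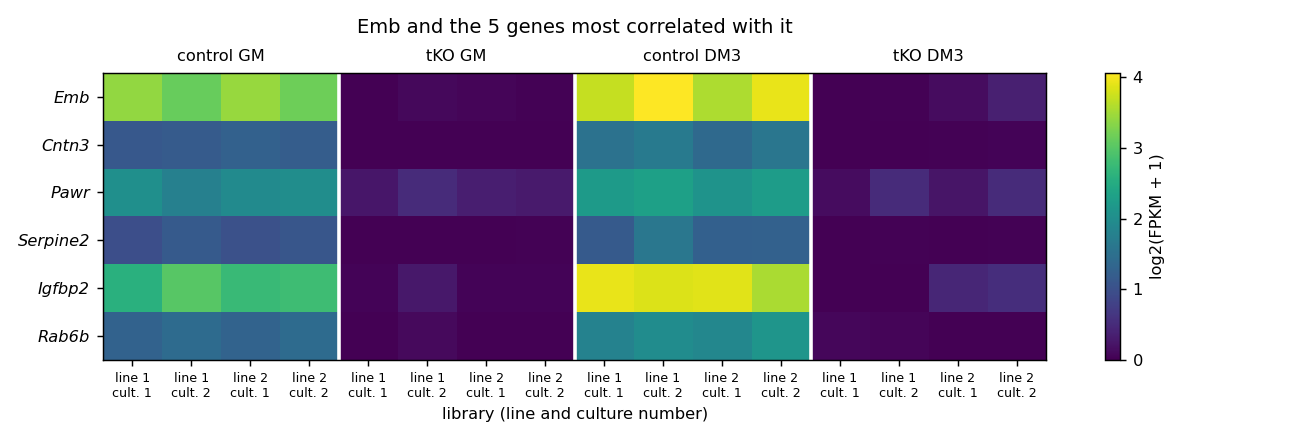
Log2(FPKM + 1) (colour scale) of Emb and the 5 genes most correlated with it, in the 16 libraries ordered by group, line and culture. All 6 rows are dark in the 8 knockout libraries, where Emb reached at most 0.285 FPKM and Pawr at most 0.422 FPKM.

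For Bsg the closest patterns were those of Cyp2d22 (r = 0.971), Acyp1 (0.966), an acylphosphatase, and 1810011O10Rik (0.963), all higher in DM3. For Slc16a1 no gene came as close, with Ube2f (0.739), a NEDD8-conjugating enzyme, Mss51 (0.706), a muscle mitochondrial protein, and Gzmm (0.701) at the top.

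The genomic surroundings of Emb were read next. Within 1 Mb, 2 genes of the table passed the filter. Parp8, a poly(ADP-ribose) polymerase 195109 bases away, had 7.17, 7.21, 7.08 and 7.40 FPKM in control GM and 4.26, 4.26, 7.08 and 5.69 FPKM in tKO GM. Clone 1 and one culture of clone 2 were lower than the controls, but the difference of -0.40 did not pass (limma adjusted p = 0.351), nor did that of -0.48 in DM3 (adjusted p = 0.273). The pseudogene Gm6421, 84114 bases away, differed by -0.21 in GM (adjusted p = 0.708) and -0.15 in DM3 (adjusted p = 0.808). Gm17509, which overlaps the start of Emb on the opposite strand, held at most 0.012 FPKM. Neither tested neighbour was called in either genotype contrast, as was true of most genes.

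Metabolism of the transported substrates was read from a list of 18 genes of lactate and pyruvate handling, of which 16 were tested. In GM 0 were higher and 1 was lower in tKO cells, and in DM3 0 were higher and 2 lower. Over all genes the shares were 0.549% higher and 1.51% lower in GM, and 2.02% and 1.36% in DM3. The median change of the 16 was -0.04 in GM and -0.14 in DM3, beside -0.01 and 0.01 for all genes. Lactate dehydrogenase A, the muscle form that favours lactate production, was abundant in every library, at 1475 ± 180.2 FPKM in control GM and 1508 ± 406.6 in tKO GM. Ldha fell with differentiation, by 1.16 in control cells (limma adjusted p = 0.000373) and by 0.67 in tKO cells (adjusted p = 0.0188). The fall in tKO cells leaned on clone 2 and was -0.29 without it (adjusted p = 0.250); it also missed the threshold without culture 1 of either clone in GM or of clone 2 in DM3, at -0.42 to -0.56. Median-of-ratios scaling (-0.51, adjusted p = 0.0701) and a fit of the compared libraries alone (adjusted p = 0.0762) ended the call too. The genotypes differed by 0.49 in DM3, which did not pass (adjusted p = 0.294), by 0.73 without culture 1 of clone 2 (adjusted p = 0.0433) and by 0.89 without clone 2 (adjusted p = 0.00853).

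Lactate dehydrogenase B, the form of oxidative tissue, had the opposite course. Ldhb was at 1.38, 1.11, 1.00 and 0.636 FPKM in control GM and 0, 0.271, 0.269 and 0.473 FPKM in tKO GM. In DM3 it was at 4.54, 7.21, 3.93 and 5.52 FPKM in control and 1.15, 1.31, 2.32 and 3.84 FPKM in tKO libraries. All knockout libraries were below all control libraries at each stage. The difference passed in DM3 (-1.05, SE 0.23, limma adjusted p = 0.0171) and not in GM (-0.70, adjusted p = 0.126). With a pseudocount of 0.1 the calls changed places: GM passed (-1.88, adjusted p = 0.0431) and DM3 did not (-1.38, adjusted p = 0.134). The GM difference also passed without clone 2 (-0.84, adjusted p = 0.0237). Ldhb rose with differentiation in both genotypes, by 1.62 in control cells (adjusted p = 1.62e-05) and 1.27 in tKO cells (adjusted p = 0.00017).

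Pyruvate dehydrogenase, which feeds pyruvate to the citric acid cycle, and pyruvate carboxylase, which makes oxaloacetate from it, gave the other calls. Pdha1, a catalytic subunit of the first, was at 149.1, 154.3, 146.7 and 160.6 FPKM in control DM3 and 78.2, 108.1, 106.6 and 121.0 FPKM in tKO DM3. The groups did not overlap, and the change was -0.57 (SE 0.12, limma adjusted p = 0.0123). Pcx was lower in tKO GM (-0.86, SE 0.20, limma adjusted p = 0.0389), at 7.01, 5.63, 14.1 and 6.05 FPKM against 17.4, 13.4, 16.4 and 12.2 FPKM in control GM. One library, culture 1 of clone 2, overlapped the control range.

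These 3 genotype calls were lost in some alternatives, while each change kept its sign. Leaving out control population 1 or 2 also took calls over all genes from 244 to 33 or 38 in GM. In DM3 that count went from 400 to 49 or 64. Without control population 1 the adjusted p rose to 0.444 for Ldhb, 0.376 for Pdha1 and 0.772 for Pcx, with changes of -0.92, -0.58 and -0.81. Without control population 2 it was 0.149, 0.251 and 0.345, with changes of -1.17, -0.57 and -0.91. A fit of the compared libraries alone gave 0.116, 0.101 and 0.103, and averages per line gave 0.129, 0.0718 and 0.108. Without clone 1 the calls of Ldhb (-0.62, adjusted p = 0.130) and Pcx (-0.61, adjusted p = 0.335) were lost. Ldhb also missed the threshold with voom (-1.47, adjusted p = 0.0778), and without culture 2 of control population 1 (-0.91) or of clone 1 (-0.92). Pcx missed it with no filter on low values (adjusted p = 0.0818), with a filter of 5 FPKM (0.0512), and without any 1 of the 8 GM libraries except culture 1 of clone 2, at -0.73 to -0.94.

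**Figure D4:**
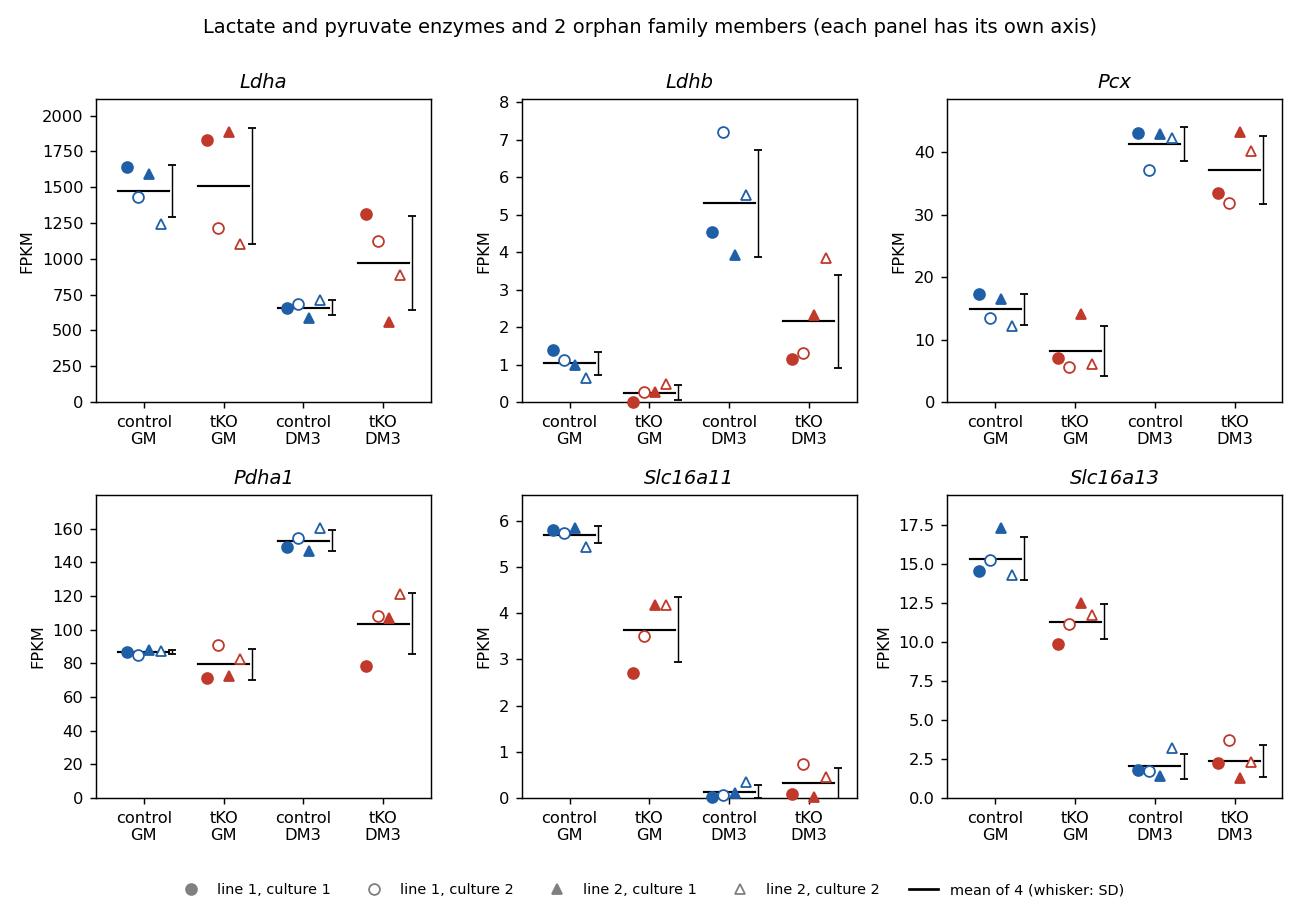
FPKM (vertical axis, from 0, a separate scale in each panel) of lactate dehydrogenases, pyruvate carboxylase, a pyruvate dehydrogenase subunit and the transporter family members Slc16a11 and Slc16a13 in the 4 groups. Symbols, lines and whiskers are libraries, means of 4 and SD, with circles and triangles for lines 1 and 2 and filled and open symbols for cultures 1 and 2. Ldhb in tKO DM3 reaches at most 3.84 FPKM, below the lowest control DM3 library at 3.93 FPKM.

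With differentiation 10 of the 16 genes rose and 2 fell in control cells, and 7 rose and 1 fell in tKO cells, where 23.2% of all genes rose and 38.3% fell in the first and 24.9% and 36% in the second. The medians were 0.31 and 0.15, beside -0.15 and -0.12 for all genes. Pdk2, a kinase that inhibits pyruvate dehydrogenase, changed by 2.50 in controls and by 2.33 in knockouts (limma adjusted p = 1.65e-09 and 3.41e-09), a rise in both. Pdp1, the phosphatase that reactivates it, rose by 2.12 and 1.99 (adjusted p = 1.95e-08 and 3.63e-08).

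A list of 13 further members of the monocarboxylate transporter families was read, and 3 were tested. None of the 3 passed in a genotype contrast. Of all genes 0.549% were higher and 1.51% lower in tKO GM, and 2.02% and 1.36% in tKO DM3, so this is usual. Slc16a11 and Slc16a13, adjacent genes on opposite strands of chromosome 11, both fell with differentiation, and the deposited values do not state whether strand was used. Slc16a11 went from 5.71 ± 0.188 to 0.129 ± 0.141 FPKM in control cells (SD, n = 4 each), a change of -2.58 (limma adjusted p = 4.08e-09), and by -1.84 in tKO cells (adjusted p = 1.15e-07). Slc16a13 went from 15.3 ± 1.39 to 2.03 ± 0.793 FPKM in control cells, a change of -2.46 (adjusted p = 3.34e-08), and by -1.91 in tKO cells (adjusted p = 4.48e-07). Slc16a10, a carrier of aromatic amino acids, rose by 0.75 in controls and 0.86 in knockouts (adjusted p = 8.32e-05 and 2.09e-05).

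Known partners of basigin formed a list of 13 genes, of which 12 were tested. In GM 1 was higher in tKO cells and 0 lower, beside 0.549% and 1.51% of all genes. In DM3 none passed in either direction, beside 2.02% higher and 1.36% lower. The gene was Itga3, the integrin alpha 3 subunit of laminin receptors, at 42.5 to 57.7 FPKM in tKO GM against 27.8 to 32.4 FPKM in control GM (0.72, SE 0.10, limma adjusted p = 0.000969), though the adjusted p was 0.129 without control population 1 (0.69) and 0.0861 without population 2 (0.75). In each genotype 3 of the 12 rose with differentiation, near the background of 23.2% in control and 24.9% in tKO cells, and 0 fell, where 38.3% and 36% of all genes did. Among them the calcium pump gene Atp2b4 rose by 1.71 in controls and 1.95 in knockouts (adjusted p = 2.76e-05 and 7.13e-06). Slc3a2, the heavy chain of amino acid carriers, rose by 1.07 in control cells (adjusted p = 0.0038; 0.86 with 0.154 without control population 1) and had a change of 0.28 in tKO cells (adjusted p = 0.417). Itga3 rose by 0.88 in control cells (adjusted p = 2.74e-06) and had a change of 0.19 in tKO cells (adjusted p = 0.133), which passed with median-of-ratios scaling (0.34, adjusted p = 0.0185). Its interaction did not pass (-0.69, adjusted p = 0.0635).

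Lactate transport moves protons, so acid and bicarbonate handling was read from 15 listed genes, 11 of them tested. None passed in GM, where 0.549% of all genes were higher and 1.51% lower. In DM3 1 was higher in tKO cells, as were 2.02% of all genes. That gene was Car9, a carbonic anhydrase of the outer cell surface that is a classical target of hypoxia signalling, at 5.36, 7.25, 3.103 and 4.07 FPKM against 1.10, 2.37, 1.15 and 2.67 FPKM in control DM3. The groups did not overlap (1.07, SE 0.22, limma adjusted p = 0.0113), but the call was lost in 6 alternatives. The adjusted p was 0.305 without control population 1 (1.03), 0.128 without population 2 (1.11) and 0.0909 without clone 1 (0.74). It was 0.0559 with a pseudocount of 0.1 (1.43), 0.101 with the compared libraries alone and 0.0735 with averages per line. With differentiation 5 rose and 1 fell in control cells, and 6 rose and 1 fell in tKO cells. Among all genes 23.2% rose and 38.3% fell in controls, and 24.9% and 36% in knockouts. Car3, the muscle carbonic anhydrase, rose by 3.22 and 2.76, and Car2 by 1.67 and 1.26, while the chloride and bicarbonate exchanger Slc4a2 fell, at -2.09 and -1.70 (controls, then knockouts; the largest limma adjusted p was 0.00318). Without clone 1 the rise of Car2 in tKO cells was 1.00 with an adjusted p of 0.0686.

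Of 13 listed regulators of these genes, such as hypoxia factors and their hydroxylases, 12 were tested and none passed in a genotype contrast. This is usual, as 0.549% of all genes were higher and 1.51% lower in tKO GM, and 2.02% and 1.36% in tKO DM3. In control cells 4 rose and 2 fell with differentiation, and in tKO cells 5 rose and 2 fell. The shares of all genes were 23.2% rising and 38.3% falling in control cells, and 24.9% and 36% in tKO cells. Txnip, a glucose-sensing arrestin, rose by 4.13 and 3.49 in controls and knockouts (limma adjusted p = 4.5e-05 and 0.000218). Trp53 fell, at -1.37 and -1.29 (adjusted p = 3.32e-07 and 5.76e-07). Egln1, a hydroxylase that marks hypoxia factors for decay, fell in control cells (-1.32, adjusted p = 0.000374; -1.07 with 0.0548 without control population 1) and had a change of -0.53 in tKO cells (adjusted p = 0.0874).

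Markers of cell state were set beside these values. The summed level of 8 myotube genes was 7.73 to 72.4 FPKM in GM libraries and 238.0 to 972.9 FPKM in DM3 libraries. The 3 proliferation genes summed to 133.9 to 236.6 FPKM in GM and 17.2 to 74.1 FPKM in DM3. In no genotype contrast did a myotube or proliferation gene pass. Over all genes 0.549% were higher and 1.51% lower in tKO GM, and 2.02% and 1.36% in tKO DM3. Of 6 myoblast markers, Cdh15 was higher in tKO GM (1.47, limma adjusted p = 0.000589). The other 5 did not pass, at -1.02 for Des, -0.40 for Myf5, -0.08 for Chrna1, 0.03 for Myod1 and 0.68 for Itga7, and the median of the 6 was -0.03. Of 3 tested markers of reserve cells, Spry1 was lower in tKO DM3 (-1.54, adjusted p = 2.33e-07), while Cd34 (0.53, adjusted p = 0.199) and Sdc4 (0.61, adjusted p = 0.262) did not pass, and the median was 0.53. Endothelial and epithelial markers summed to at most 0.435 and 0.323 FPKM. The 3 blood cell markers summed to 0.691 to 4.11 FPKM, and the 3 adipocyte markers to 0.349 to 11.5 FPKM. The 3 neural or glial markers summed to 0.666 to 1.44 FPKM in control DM3 and 2.36 to 7.88 FPKM in tKO DM3, where Tubb3 was called higher (1.38, adjusted p = 0.02). The part of these markers in the differences above was not tested.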

How the data were processed

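The authors deposited 1 table of FPKM values for 16 poly(A) RNA libraries, with gene lengths and positions. STAR, DESeq and mm10 are named in the submitters' processing notes. Versions, the annotation release and the use of strand are not given in the sources used here, so overlapping genes are uncertain. FPKM multiplied by length gave whole multiples of a step per library for all values above 0 (tolerance 0.01 fragments), from which fragments and depth were worked out. Groups came from sample titles, and columns were matched through the sample descriptions.

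limma 3.58.1 (R 4.3.3) was fitted to log2(FPKM + 1) of 11832 genes with a mean of at least 0.5 FPKM, as group means over 16 libraries with trend and robust moderation. Benjamini-Hochberg adjusted p-values under 0.05 were called. Lines were compared in 8 cells of line and stage. Shares were compared by two-sided exact permutation over 70 splits. Python 3.11.15, pandas 2.3.3 and scipy 1.17.1 were used. The procedure was run on simulated independent libraries with no line or culture structure, so that run does not test it for this design. Alternatives were another pseudocount (0.1), filters, scaling, voom, fewer libraries, a replicate block and line averages.

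Members and lists were chosen with earlier results of these data known. Named are the members, Nptn, Ldha and Ldhb, list genes past the threshold in a genotype contrast, the 3 largest changes per list in control differentiation, filtered neighbours of Emb within 1 Mb, and the 5 or 3 most correlated genes. Sequences are from RefSeq (GRCm38.p6) and GENCODE M21. Of the 5 members, 3 were matched to a promoter by symbol, not Bsg and Slc16a7. Cdh15, Spry1 and Tubb3 were named after their values were seen.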

Additional observations from a re-analysis of the deposited data

Results flagged for a closer look

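In groups of 4 libraries, 1 library stood far from the other 3 in 6 of 107 groups examined, and chance alone gives about 1 in 20 for normally distributed values. That rate does not hold near the limit of detection. A gene with fragments in only 1 library of a group is always flagged, as Slc16a7 was in control GM. Slc16a3 was at 0.7238 FPKM in culture 1 of tKO clone 1 in GM, against 0.165 to 0.257 FPKM in the other 3 tKO GM libraries. Slc16a7 was at 0.007555 FPKM in culture 1 of control population 1 in GM, a single fragment where the other 3 had none. Slc16a7 was at 0.03896 FPKM in culture 2 of control population 2 in DM3, against 0 to 0.00467 FPKM. Pcx was at 14.13 FPKM in culture 1 of tKO clone 2 in GM, against 5.63 to 7.01 FPKM. Pcx was at 37.27 FPKM in culture 2 of control population 1 in DM3, against 42.3 to 43.1 FPKM. Pdp1 was at 2.594 FPKM in culture 1 of tKO clone 2 in GM, against 2.97 to 3.05 FPKM. The cause of each was not tested.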

How the results depend on the processing

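Under the alternatives, Emb stayed lower in tKO cells and its log2 difference moved only in size: with a pseudocount of 0.1 it was -6.118 in GM and -6.262 in DM3, and with voom on fragments -8.361 and -8.147. Its rise in control DM3 lost its call with a pseudocount of 0.1 (0.5829) and without control population 1 (0.4533). The rise of Bsg in tKO cells lost its call without clone 1 (0.4235). Small differences changed sign. Bsg in DM3 was 0.08913 without control population 1 and 0.1374 without clone 2, and its interaction 0.01116 without clone 2. Slc16a1 in DM3 was 0.05983 without clone 1, and median-of-ratios scaling put its control stage change at 0.354, past the threshold, and that of Nptn at 0.0005904. Gm6421 was 0.05184 in DM3 without control population 2 and 0.02228 in GM without clone 2. Ldha in GM was 0.01931 with median-of-ratios scaling, 0.06208 without control population 1 and 0.02456 without clone 2. The share of Slc16a1 in DM3 was -0.1636 points without control population 2 and -0.3257 without clone 2.

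Counts over all genes moved more. The number of genes called in GM, 244, was 93 with a filter of 5 FPKM, 97 with line averages, 33 and 38 without control populations 1 and 2, and 1315 without clone 2. In DM3 the number, 400, was 231, 131, 49, 64 and 1136 in that order, and 113 with the compared libraries alone. In control differentiation the number, 7272, was 4440 and 4693 without populations 1 and 2. The number of interactions, 30, was 13 with a pseudocount of 0.1, 1 with line averages, 0 and 1 without populations 1 and 2, and 101 without clone 2. Where limma called 0, the unadjusted p was under 0.05 for 314 genes. The cause of these changes was not tested, beyond the fewer genes or libraries that some of them use.

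With 1 library left out at a time, the genes called ran from 80 to 749 in GM, 208 to 854 in DM3 and 6 to 179 for the interaction. Bsg in DM3 ran from -0.1622 to 0.1081, Slc16a1 in DM3 from -0.1502 to 0.003874, Ldha in GM from -0.1216 to 0.1376, and the share of Slc16a1 from -0.2251 to 0.2661 points in DM3 and from -0.1843 to 0.359 between stages in tKO cells. The culture number as a replicate block gave 336 genes in GM, 523 in DM3 and 49 interactions, and changed no call of Emb, Bsg or Slc16a1. The titles give these numbers without stating a pairing. Deviations of same-numbered libraries correlated across genes at 0.543 between genotypes in GM and 0.343 in DM3, but at 0.0993 and -0.106 between stages. Depth limits Slc16a7 and, in tKO cells, Emb to counts near detection.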
